A study of Mus musculus with 9 samples.

Results

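The mitochondrial solute carriers are the genes whose symbol in the deposited count table begins with Slc25a and a digit, with Slc25a20 and Slc25a37 left out. The rule found 42 carriers among 16200 genes, and 38 of them were among the 12587 genes with enough counts to be tested. The other 4, Slc25a2, Slc25a18, Slc25a21 and Slc25a31, had at most 16 counts in any library. The rule reads the symbol alone.

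Carriers of this family are membrane proteins of the inner mitochondrial membrane, with few exceptions, and each exchanges or imports particular metabolites between cytosol and matrix. ADP and ATP, phosphate, citrate and other carboxylates, amino acids, cofactors, nucleotides and glutathione cross the membrane through different members. The malate-aspartate shuttle, citrate export for lipid synthesis, heme synthesis and branched-chain amino acid breakdown all rely on such carriers. In macrophages, IL-4 signals through STAT6 and drives alternative activation, and IL-27 is a cytokine of the IL-12 family.

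PolyA RNA was sequenced from WT mouse macrophages derived from bone marrow in a culture of 6 days, in medium with L929 supernatant, a source of macrophage growth factor. There were 3 libraries of cells given IL-27 at 100 ng/ml for 6 h, 3 libraries of cells given IL-4 at 20 ng/ml for 12 h and 3 libraries of untreated cells. The labels do not say whether IL-27 cells also received IL-4, and the design text speaks of 3 replicate experiments a group without naming animals or cultures. If the libraries are not from separate cultures, p-values rest on a spread between libraries that could be technical alone. Cytokine, dose and time cannot be told apart between IL-27 and IL-4 libraries.

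Total counts ran from 34577188 to 37951827 per library. The 7 macrophage markers were all detected, with summed levels of 24053 to 26113 CPM (counts scaled to library size, with TMM factors) in IL-27 libraries, 14446 to 18047 CPM in IL-4 libraries and 22744 to 31423 CPM in untreated libraries. Fibroblast markers, all 5 detected, summed to 1044 to 1306 CPM in IL-27 libraries, 508 to 713 CPM in IL-4 libraries and 680 to 772 CPM in untreated libraries. Endothelial markers summed to 23.1 to 28.1 CPM, 9.80 to 10.8 CPM and 7.37 to 9.73 CPM in IL-27, IL-4 and untreated libraries in that order, neutrophil markers to 7.69 to 9.08, 2.02 to 2.82 and 3.52 to 4.72 CPM, and eosinophil markers to 14.4 to 17.0, 34.5 to 47.3 and 39.8 to 42.6 CPM. T cell, B cell, dendritic cell, mast cell and erythroid markers reached no more than 3.55 CPM in any library. The part of these other markers in the carrier results was not tested, and in bulk RNA fewer cells of a type and less RNA per cell cannot be told apart. IL-4 replicate 1 and untreated replicate 2 stood apart from the other libraries of their groups. The chi-square statistic per gene was 121 to 152 for the 4 replicate pairs that held one of them and 6.04 to 10.2 for the other 5 pairs.

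Promoter windows of 250 bases before to 50 bases after the annotated start were taken from RefSeq (GRCm38.p6) for 33 carriers, which had 43 windows in all. The windows were searched for 4 motifs on both strands: the E-box CACGTG, which MYC and related factors bind, the C/EBP-ATF response element TTNCATCA, the interferon-type STAT motif TTCNNNGAA and the STAT6-type motif TTCNNNNGAA. The E-box was in 8 of 43 carrier windows (18.6%) and in 7.15% of all 32851 windows. These 8 windows belong to 7 of the 33 carriers, as overlapping windows of Slc25a14 hold the same E-box. TTNCATCA was in 0 carrier windows and in 3.97% of all windows, TTCNNNGAA in 1 carrier window (Slc25a36) and in 8.3% of all windows, and TTCNNNNGAA in 2 carrier windows (Slc25a21 and Slc25a25) and in 6.95% of all windows. A match describes letters in a window and shows no binding. The windows below are those of 4 carriers that passed a test and hold a motif, in capitals, and of Slc25a5, the most abundant carrier, which passed a test and holds none. They are given 5′ to 3′ on the strand of the gene.
Slc25a33, chr4:149774218-149774517, minus strand, E-box at position 243 of the window: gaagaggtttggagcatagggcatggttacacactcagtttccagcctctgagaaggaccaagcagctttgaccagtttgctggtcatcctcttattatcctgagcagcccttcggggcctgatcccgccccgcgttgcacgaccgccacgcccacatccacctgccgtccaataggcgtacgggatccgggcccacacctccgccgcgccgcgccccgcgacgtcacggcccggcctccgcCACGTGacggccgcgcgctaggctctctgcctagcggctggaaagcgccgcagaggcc
Slc25a13, chr6:6217124-6217423, minus strand, E-box at position 126: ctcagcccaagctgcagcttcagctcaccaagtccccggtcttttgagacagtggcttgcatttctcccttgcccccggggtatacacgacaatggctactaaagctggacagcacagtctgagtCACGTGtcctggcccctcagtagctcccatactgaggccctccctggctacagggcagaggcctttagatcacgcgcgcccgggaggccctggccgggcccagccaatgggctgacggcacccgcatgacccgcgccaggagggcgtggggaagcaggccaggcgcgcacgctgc
Slc25a1, chr16:17928170-17928469, minus strand, E-box at position 12: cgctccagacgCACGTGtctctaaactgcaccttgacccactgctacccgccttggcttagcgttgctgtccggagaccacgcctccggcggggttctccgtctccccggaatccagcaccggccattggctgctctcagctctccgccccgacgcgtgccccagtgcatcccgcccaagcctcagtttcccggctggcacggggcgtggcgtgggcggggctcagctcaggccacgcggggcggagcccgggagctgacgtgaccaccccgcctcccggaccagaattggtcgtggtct
Slc25a25, chr2:32424017-32424316, minus strand, the third of its windows, STAT6-type motif at position 282: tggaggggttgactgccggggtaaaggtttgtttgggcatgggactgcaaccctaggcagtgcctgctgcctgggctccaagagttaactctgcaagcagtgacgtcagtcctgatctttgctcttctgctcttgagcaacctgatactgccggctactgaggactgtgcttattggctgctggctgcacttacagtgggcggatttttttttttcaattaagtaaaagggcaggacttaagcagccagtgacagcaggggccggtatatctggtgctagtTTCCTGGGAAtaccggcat
Slc25a5, chrX:36795347-36795646, plus strand, no motif of the 4: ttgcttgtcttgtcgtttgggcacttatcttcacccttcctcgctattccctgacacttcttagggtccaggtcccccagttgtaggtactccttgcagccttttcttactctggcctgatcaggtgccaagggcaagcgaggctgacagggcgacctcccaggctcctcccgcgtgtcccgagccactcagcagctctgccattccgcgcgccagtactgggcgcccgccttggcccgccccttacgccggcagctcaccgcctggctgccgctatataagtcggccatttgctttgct

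Levels were compared between carriers per length, from the deposited FPKM values. Slc25a5, an ADP/ATP carrier, averaged 244 ± 1.34 FPKM in IL-27 libraries, 394 ± 13.2 FPKM in IL-4 libraries and 239 ± 5.25 FPKM in untreated libraries (SD, n = 3 each, here and below). Slc25a3, the phosphate carrier that feeds ATP synthase, followed at 203 ± 0.686, 241 ± 13.2 and 208 ± 9.76 FPKM in the same order of groups. Slc25a4, the ADP/ATP carrier typical of heart and muscle, averaged 81.5 ± 3.49, 117 ± 1.94 and 106 ± 2.57 FPKM. These 3 genes of ATP supply held 63.4 to 63.7% of the summed carrier FPKM in IL-27 libraries, 67.1 to 68.2% in IL-4 libraries and 61.8 to 62.4% in untreated libraries, so the IL-4 libraries had the largest share.

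Next by level came Slc25a39 (glutathione import) at 42.1 ± 0.667 FPKM in IL-27 libraries, 56.2 ± 7.58 FPKM in IL-4 libraries and 48.3 ± 6.13 FPKM in untreated libraries. Slc25a11, the oxoglutarate-malate carrier, averaged 36.4 ± 1.39, 51.2 ± 3.51 and 46.0 ± 3.84 FPKM in those groups, and Slc25a1, the citrate carrier, 27.7 ± 1.37, 40.6 ± 4.48 and 38.01 ± 4.64 FPKM. Over all libraries 3 carriers averaged at least 100 FPKM, 14 at least 10 FPKM, 31 at least 1 FPKM and 37 at least 0.1 FPKM. The summed FPKM of the 42 carriers was 831 ± 5.80 in IL-27 libraries, 1114 ± 21.4 in IL-4 libraries and 889 ± 14.9 in untreated libraries. The 3 groups did not overlap in this sum, which is scaled to raw library totals, and IL-27 libraries were the lowest. With TMM factors, the summed CPM (not per length) was 1810, 1812 and 1802 in IL-27 libraries and 2334, 2119 and 2059 in IL-4 libraries. Untreated libraries had 1785, 2025 and 1838 CPM, so on that scale they overlapped with the IL-27 libraries.

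**Figure D1:**
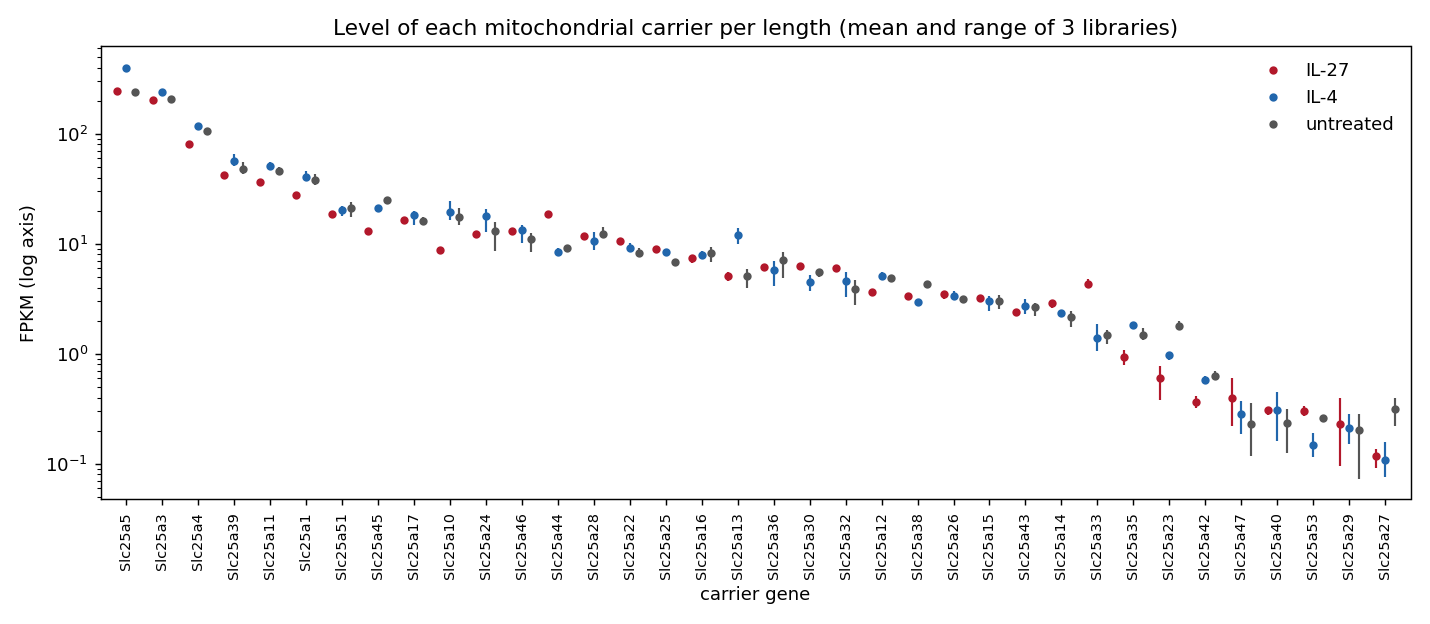
Deposited FPKM (log axis) of 36 of the 37 carriers that averaged at least 0.1 FPKM, in order of level; points are means and lines the range of 3 libraries for IL-27, IL-4 and untreated macrophages. Slc25a5 is highest at 244, 394 and 239 FPKM, and Slc25a44 and Slc25a33 stand higher in IL-27 libraries than in both other groups.

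Differences between groups were tested on the counts with edgeR's quasi-likelihood test, and a gene was called at a Benjamini-Hochberg adjusted p under 0.05 over all 12587 genes; every adjusted p below comes from it unless another tool is named. In IL-4 against untreated libraries, 2 carriers of 38 were higher (5.26%, against 12.9% of all genes tested) and 4 were lower (10.5%, against 12% of all genes). In IL-27 against untreated libraries, 4 were higher (10.5%, against 14%) and 8 were lower (21.1%, against 15.1%). In IL-27 against IL-4 libraries, 5 were higher (13.2%, against 18.8%) and 9 were lower (23.7%, against 21%). Some of these shares lay near those of all genes (10.5% against 12%, 23.7% against 21%), and no test over the carriers as a set was run. The median log2 fold change of the 38 carriers was 0.04, -0.02 and 0.06 in the 3 comparisons in that order, beside -0.01, 0.00 and 0.01 over all genes.

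In every comparison, the libraries of the 2 groups did not overlap in CPM for any called carrier. Changes over 2-fold were few, with 2, 4 and 6 carriers in the 3 comparisons. In all, 20 carriers were called in at least 1 comparison, 18 in none and 0 in all 3. Overlaps, changes over 2-fold and this union were not counted over all genes, so they describe the carriers alone. The comparisons share libraries, so they are not independent of each other. Without IL-4 replicate 1 and untreated replicate 2, 19, 19 and 24 carriers of 38 were called, beside 46.4%, 49.5% and 58.3% of all genes, and 30 of the 32 calls made with all libraries stayed. The 2 that were lost were Slc25a35 and Slc25a42 in IL-27 against untreated libraries.

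**Figure D2:**
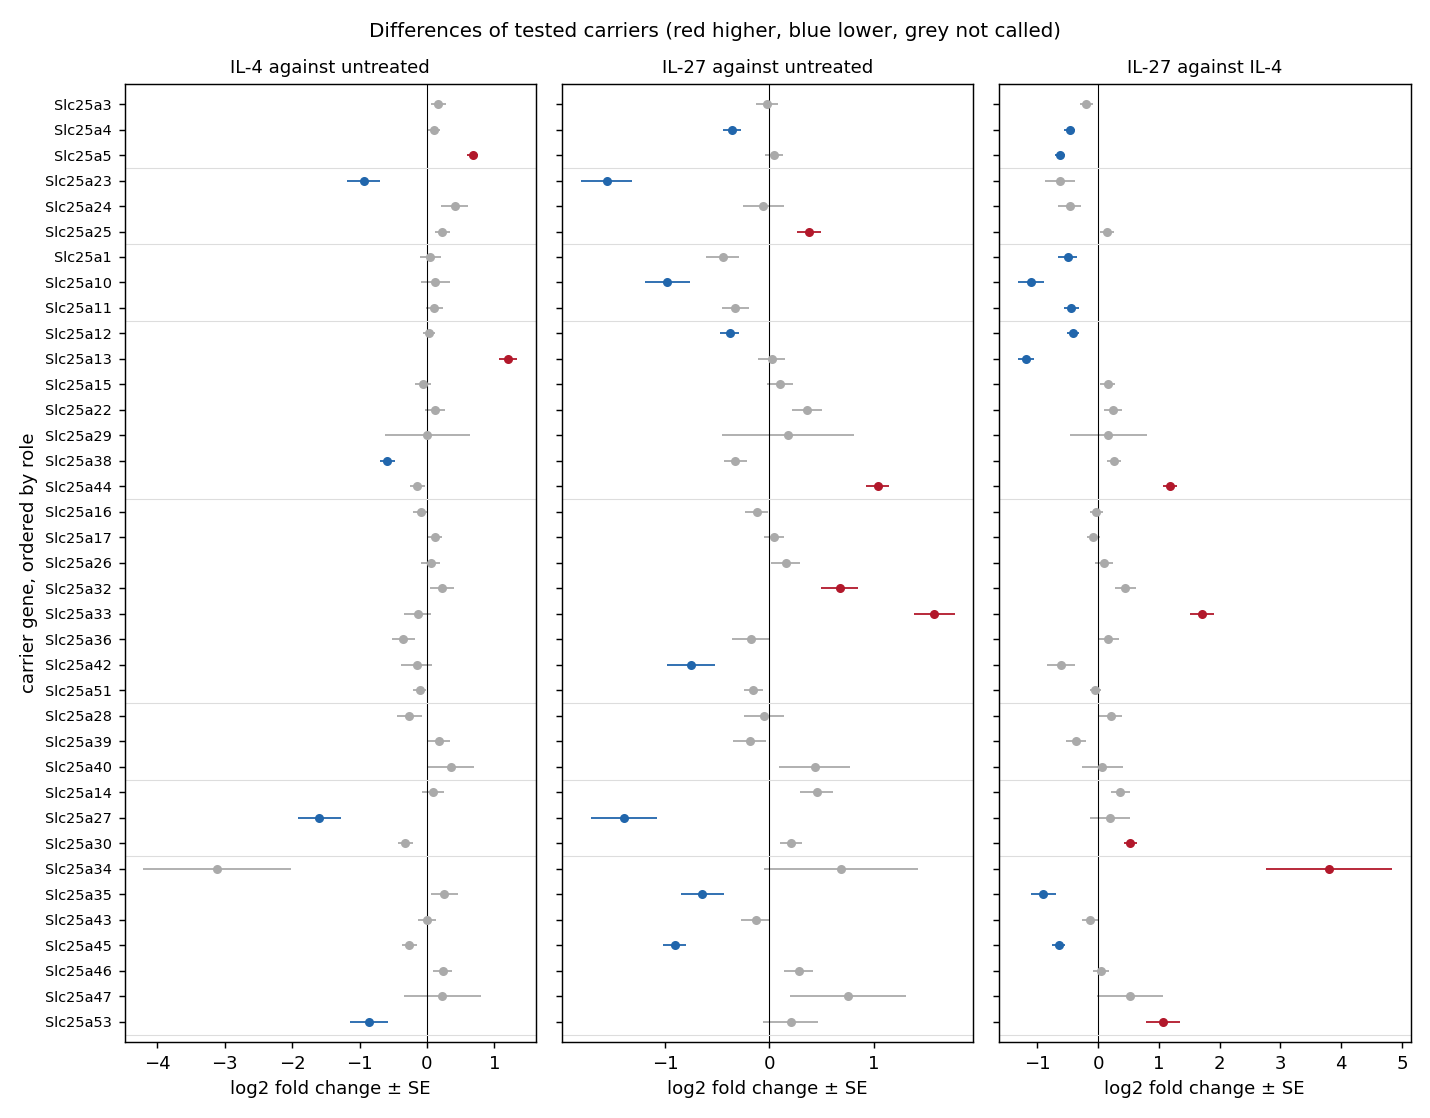
Log2 fold change with its standard error for 37 tested carriers, ordered by role from top to bottom, in IL-4 against untreated, IL-27 against untreated and IL-27 against IL-4 libraries; red points were called higher, blue points lower and grey points not called. Slc25a5 and Slc25a13 are the carriers called higher under IL-4, and Slc25a33 and Slc25a44 are called higher under IL-27 against both other groups.

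Among ADP/ATP and phosphate carriers, 1 of 3 tested members was higher under IL-4 than in untreated cells (12.9% of all genes) and 1 was lower under IL-27 (15.1%). Slc25a5 stood at 322, 325 and 319 CPM in IL-27 libraries, 526, 502 and 468 CPM in IL-4 libraries and 290, 340 and 306 CPM in untreated libraries. All IL-4 libraries lay above all others, and IL-27 and untreated libraries overlapped. Slc25a5 rose 1.60-fold under IL-4 against untreated (log2 0.68 ± 0.09, SE, adjusted p = 0.000351) and was 1.55-fold lower in IL-27 than in IL-4 libraries (log2 -0.63 ± 0.09, adjusted p = 0.000248).

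Slc25a4 stood at 115, 107 and 110 CPM in IL-27 libraries, 167, 147 and 145 CPM in IL-4 libraries and 136, 150 and 140 CPM in untreated libraries. The IL-27 libraries were the lowest, and the IL-4 and untreated libraries overlapped. Slc25a4 was 1.28-fold lower in IL-27 than in untreated libraries (log2 -0.36 ± 0.09, adjusted p = 0.011), a call lost without IL-27 replicate 2 (adjusted p = 0.0533), and 1.38-fold lower in IL-27 than in IL-4 libraries (log2 -0.47 ± 0.09, adjusted p = 0.00176). Slc25a3 differed by log2 -0.02 to 0.17 in the comparisons with untreated libraries and by -0.19 ± 0.11 between IL-27 and IL-4 libraries, with adjusted p of 0.192 to 0.893. Without IL-4 replicate 1 and untreated replicate 2, it was called higher in IL-4 than in untreated libraries (log2 0.18 ± 0.05, adjusted p = 0.0025). In that fit it was lower in IL-27 than in IL-4 libraries (-0.10 ± 0.04, adjusted p = 0.0373). Slc25a31, the ADP/ATP carrier of testis, had 0 to 11 counts per library and was not tested.

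The proportion of the ADP/ATP carriers to each other also differed between groups. The FPKM ratio of Slc25a5 to Slc25a4 was 3.00 ± 0.124 in IL-27 libraries, 3.36 ± 0.142 in IL-4 libraries and 2.26 ± 0.0656 in untreated libraries. No groups overlapped in this ratio, although with 3 libraries against 3 an exact permutation test cannot go below p = 0.10. The genes are close copies, and how reads that fit both were treated is not stated in those sources, so the ratio is uncertain to that extent.

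Calcium-regulated ATP-Mg/phosphate carriers set the pool of adenine nucleotides in the matrix. Slc25a23 stood at 2.54, 1.46 and 2.98 CPM in IL-27 libraries, 3.46, 3.72 and 3.61 CPM in IL-4 libraries and 5.98, 8.13 and 6.58 CPM in untreated libraries. Both cytokine groups lay below all untreated libraries, and the IL-27 libraries lay below the IL-4 libraries. It fell 2.96-fold under IL-27 against untreated (log2 -1.57 ± 0.25, adjusted p = 0.00113) and 1.91-fold under IL-4 against untreated (log2 -0.94 ± 0.24, adjusted p = 0.0184), and the IL-4 call was lost without IL-4 replicate 3 (adjusted p = 0.0569). Between IL-27 and IL-4 libraries the difference was not called by edgeR with all libraries (log2 -0.63 ± 0.25, adjusted p = 0.0711) and was called without the pair (-0.66 ± 0.25, adjusted p = 0.0264).

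Slc25a25, a carrier of the same kind, stood at 38.6, 38.2 and 38.2 CPM in IL-27 libraries, 38.6, 31.8 and 33.4 CPM in IL-4 libraries and 26.3, 33.5 and 28.7 CPM in untreated libraries. The IL-27 libraries lay above all untreated libraries and overlapped with the IL-4 libraries. It was 1.30-fold higher in IL-27 than in untreated libraries (log2 0.38 ± 0.11, adjusted p = 0.0324), and the call was lost without untreated replicate 1 (adjusted p = 0.113), untreated replicate 3 (0.0899) or any 1 of the 3 IL-27 libraries (0.0877 to 0.0971). Slc25a24 was low in the pair that stood apart, at 45.4 CPM in IL-4 replicate 1 against 66.5 and 64.5 CPM in the other IL-4 libraries, and at 31.4 CPM in untreated replicate 2 against 51.3 and 50.03 CPM in the other untreated libraries. It was called by edgeR in no comparison with all libraries. Without the pair it was called in all 3, at log2 -0.26 ± 0.07 in IL-27 against untreated, 0.37 ± 0.07 in IL-4 against untreated and -0.63 ± 0.06 in IL-27 against IL-4 libraries (adjusted p of 0.0018, 0.000106 and 4.56e-09). DESeq2 with all libraries had 1 of the 3 calcium-regulated carriers lower in IL-27 than in IL-4 libraries, against 0 by edgeR.

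Carriers of di- and tricarboxylates and oxo acids were all lower in IL-27 than in IL-4 libraries, 3 of the 3 tested, beside 21% of all genes. Slc25a10, the dicarboxylate carrier that exchanges malate or succinate for phosphate, stood at 32.5, 38.4 and 36.6 CPM in IL-27 libraries, 102, 62.7 and 66.4 CPM in IL-4 libraries and 62.3, 91.8 and 58.1 CPM in untreated libraries. Every IL-27 library was below every other library, and the highest values in the other groups were those of the pair that stood apart. Slc25a10 was 1.97-fold lower in IL-27 than in untreated libraries (log2 -0.98 ± 0.22, adjusted p = 0.0073) and 2.15-fold lower in IL-27 than in IL-4 libraries (log2 -1.10 ± 0.22, adjusted p = 0.00261). Without the pair these differences were -0.75 ± 0.07 and -0.86 ± 0.07 on the log2 scale.

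Slc25a1, which exports citrate for fatty acid and sterol synthesis, stood at 47.2, 50.02 and 44.7 CPM in IL-27 libraries, 80.3, 59.2 and 61.1 CPM in IL-4 libraries and 59.5, 78.9 and 55.5 CPM in untreated libraries. Slc25a11, the oxoglutarate-malate carrier of the malate-aspartate shuttle, stood at 75.9, 77.1 and 81.2 CPM in IL-27 libraries, 121, 101 and 95.1 CPM in IL-4 libraries and 89.0, 116 and 89.5 CPM in untreated libraries. For both genes the IL-27 libraries were the lowest, and the IL-4 and untreated libraries overlapped. Against IL-4 libraries, IL-27 libraries were 1.41-fold lower for Slc25a1 (log2 -0.50 ± 0.16, adjusted p = 0.0281) and 1.36-fold lower for Slc25a11 (log2 -0.44 ± 0.13, adjusted p = 0.0213). Both calls were lost without IL-4 replicate 1 or any 1 of the IL-27 libraries, at adjusted p of 0.0577 to 0.0966 for Slc25a1 and 0.0507 to 0.0747 for Slc25a11. Against untreated libraries the differences of -0.45 ± 0.16 and -0.33 ± 0.13 were not called by edgeR with all libraries (adjusted p = 0.0548 and 0.0812) and were called without the pair (-0.29 ± 0.07 and -0.20 ± 0.05, adjusted p = 0.000783 and 0.00409). DESeq2 called that of Slc25a1 with all libraries (adjusted p = 0.0288). By edgeR, Slc25a1 was called with only those groups in the fit (0.0326), without untreated replicate 3 (0.0411) and without IL-4 replicate 1 (0.0187). Slc25a11 was called without IL-4 replicate 1 (0.0374). Slc25a21, the oxodicarboxylate carrier, had 4 counts in untreated replicate 2 and 0 in the other libraries, where a count of 0 allows up to 0.088 CPM.

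Of the 7 amino acid carriers tested, Slc25a13, Slc25a12, Slc25a38 and Slc25a44 were called in at least 1 comparison, a union not counted over all genes. Under IL-4 against untreated 1 was higher and 1 lower (14.3% each, beside 12.9% and 12% of all genes). Under IL-27 against untreated 1 was higher and 1 lower (14.3% each, beside 14% and 15.1%). Between IL-27 and IL-4 libraries 1 was higher and 2 lower in IL-27 (14.3% and 28.6%, beside 18.8% and 21%). Slc25a12 and Slc25a13 are the calcium-regulated aspartate-glutamate carriers, which export aspartate in the malate-aspartate shuttle. Slc25a13 stood at 23.0, 21.4 and 25.2 CPM in IL-27 libraries, 46.9, 59.5 and 51.8 CPM in IL-4 libraries and 23.6, 19.3 and 25.6 CPM in untreated libraries. The IL-4 libraries were above both other groups, which overlapped. Slc25a13 rose 2.31-fold under IL-4 against untreated (log2 1.21 ± 0.13, adjusted p = 0.000159) and was 2.28-fold lower in IL-27 than in IL-4 libraries (log2 -1.19 ± 0.13, adjusted p = 7.29e-05).

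Slc25a12 stood at 32.4, 32.7 and 32.1 CPM in IL-27 libraries, 45.7, 45.1 and 38.7 CPM in IL-4 libraries and 40.7, 43.1 and 42.9 CPM in untreated libraries. Here the IL-27 libraries were the lowest, 1.30-fold below untreated (log2 -0.38 ± 0.09, adjusted p = 0.0116) and 1.33-fold below IL-4 libraries (log2 -0.41 ± 0.09, adjusted p = 0.00552). The FPKM ratio of Slc25a13 to Slc25a12 was 1.37 ± 0.126 in IL-27 libraries, 2.35 ± 0.336 in IL-4 libraries and 1.04 ± 0.155 in untreated libraries, with no overlap between groups. Slc25a13 was thus the higher of the pair per length in every IL-27 and IL-4 library, and the lower in 1 untreated library, where the ratio was 0.859. This order rests on the lengths behind the deposited FPKM, 4509 bases for Slc25a13 and 8638 bases for Slc25a12. In CPM, Slc25a12 was the higher in every IL-27 and untreated library and the lower in every IL-4 library.

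Slc25a44, the carrier that brings branched-chain amino acids into the matrix, stood at 104, 106 and 98.3 CPM in IL-27 libraries, 52.4, 41.6 and 42.0 CPM in IL-4 libraries and 46.7, 54.5 and 49.0 CPM in untreated libraries. Every IL-27 library was above every other library. It rose 2.06-fold under IL-27 against untreated (log2 1.04 ± 0.11, adjusted p = 9.7e-05) and was 2.27-fold higher in IL-27 than in IL-4 libraries (log2 1.18 ± 0.11, adjusted p = 2.19e-05).

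Slc25a38, which imports glycine for the first step of heme synthesis, stood at 13.7, 15.9 and 15.9 CPM in IL-27 libraries, 13.8, 12.1 and 12.1 CPM in IL-4 libraries and 19.4, 19.8 and 18.0 CPM in untreated libraries. Both cytokine groups lay below the untreated libraries. The 1.5-fold fall under IL-4 against untreated was called (log2 -0.59 ± 0.11, adjusted p = 0.0041). The 1.26-fold difference under IL-27 was at the edge (log2 -0.33 ± 0.11, adjusted p = 0.0522, and 0.0201 without the pair). DESeq2 called this IL-27 difference with all libraries (adjusted p = 0.02), as edgeR did with only those groups in the fit (0.0491). Slc25a22, a glutamate carrier, differed by log2 0.36 ± 0.15 between IL-27 and untreated libraries (adjusted p = 0.091), and without the pair by 0.51 ± 0.08 (adjusted p = 5.73e-06). It was also called there without untreated replicate 2 (0.0142) or without IL-4 replicate 1 (0.0447). Slc25a15, the ornithine carrier of the urea cycle, averaged 12.3 ± 0.538 CPM in IL-27 libraries, 11 ± 1.19 CPM in IL-4 libraries and 11.5 ± 0.903 CPM in untreated libraries and was not called (adjusted p of 0.345 to 0.788). Slc25a29, a carrier of basic amino acids, averaged 0.405 to 0.456 CPM in the groups and was not called, and Slc25a2 and Slc25a18, carriers of ornithine and of glutamate, had 0 to 16 counts per library and were not tested.

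**Figure D3:**
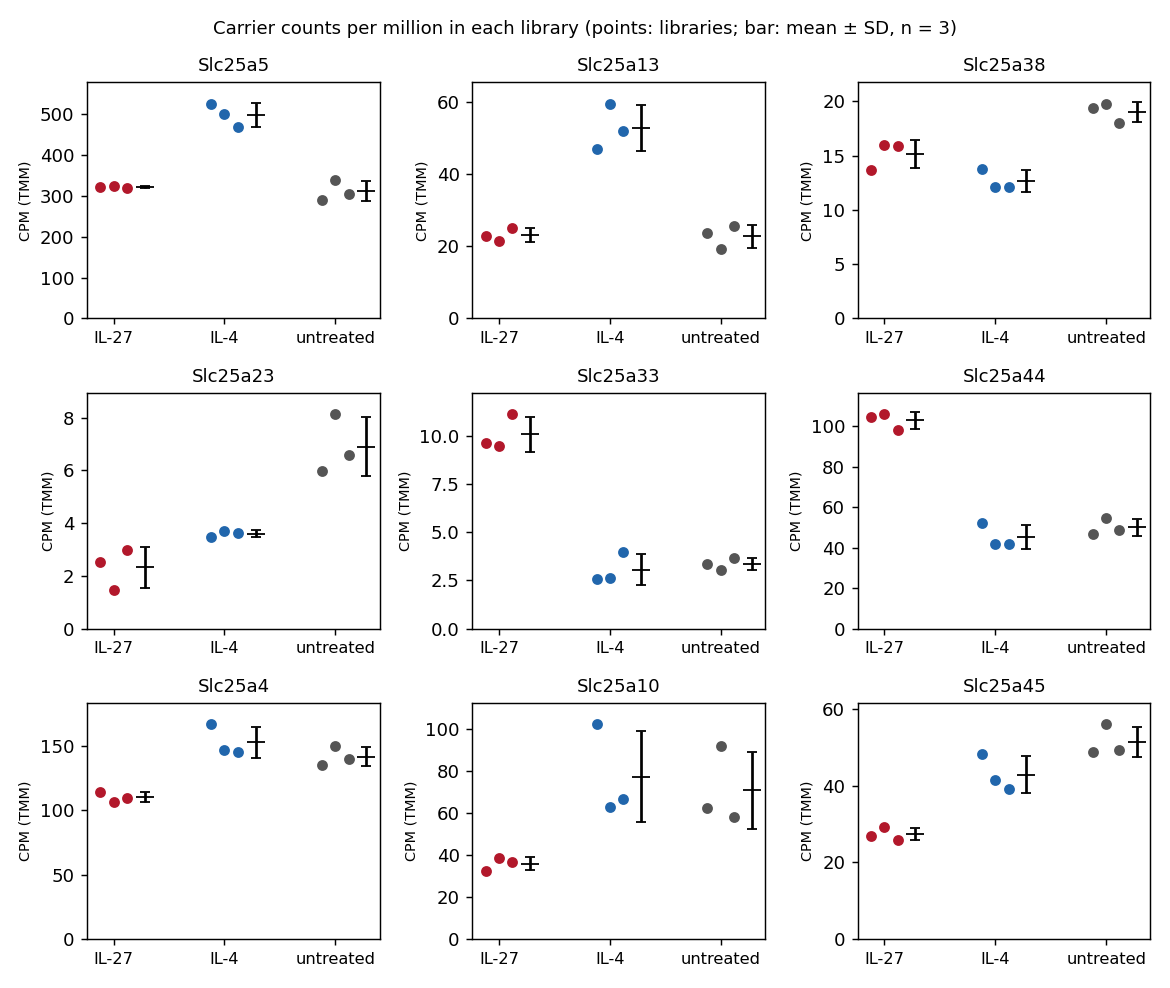
TMM-normalised CPM of 9 called carriers in each library; points are libraries, and the bar beside them is the mean ± SD of 3 libraries for IL-27, IL-4 and untreated macrophages. For Slc25a13 the IL-4 libraries (46.9 to 59.5 CPM) stand above the others, and for Slc25a33 the IL-27 libraries (9.49 to 11.1 CPM) do.

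Among the 4 carriers called higher in IL-27 than in untreated libraries, the largest rise was that of a nucleotide carrier. Slc25a33, which imports pyrimidine nucleotides for mitochondrial DNA and RNA synthesis, stood at 9.63, 9.49 and 11.1 CPM in IL-27 libraries, 2.55, 2.65 and 3.99 CPM in IL-4 libraries and 3.36, 3.04 and 3.68 CPM in untreated libraries. The IL-27 libraries were all above the rest, and the IL-4 and untreated libraries overlapped. Slc25a33 rose 2.99-fold under IL-27 against untreated (log2 1.58 ± 0.20, adjusted p = 0.000249) and was 3.28-fold higher in IL-27 than in IL-4 libraries (log2 1.72 ± 0.20, adjusted p = 8.12e-05). Slc25a36, the other pyrimidine nucleotide carrier, averaged 46.3 ± 0.849 CPM in IL-27 libraries, 41.1 ± 8.27 CPM in IL-4 libraries and 52.4 ± 11.1 CPM in untreated libraries and was not called with all libraries. Without the pair it was lower than in untreated libraries under IL-27 (log2 -0.34 ± 0.07, adjusted p = 0.000147) and under IL-4 (-0.35 ± 0.07, adjusted p = 0.000361). The FPKM ratio of Slc25a33 to Slc25a36 was 0.707 ± 0.0693 in IL-27 libraries, 0.242 ± 0.0379 in IL-4 libraries and 0.212 ± 0.0298 in untreated libraries, so Slc25a36 stayed the higher of the pair per length in all groups.

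Slc25a32, the carrier of folate and FAD, stood at 36.4, 35.7 and 36.6 CPM in IL-27 libraries, 20.2, 30.8 and 28.5 CPM in IL-4 libraries and 26.7, 17.7 and 23.5 CPM in untreated libraries. IL-27 libraries were the highest, and IL-4 replicate 1 and untreated replicate 2 were the lowest of their groups. The rise of 1.60-fold under IL-27 against untreated was called (log2 0.68 ± 0.18, adjusted p = 0.0178), and the call was lost without any 1 of the IL-27 libraries (adjusted p of 0.0514 to 0.0566) but held without the pair (log2 0.52 ± 0.08, adjusted p = 7.63e-06). Slc25a42, a coenzyme A carrier, stood at 1.15, 1.05 and 1.34 CPM in IL-27 libraries, 1.82, 1.67 and 1.88 CPM in IL-4 libraries and 1.75, 2.08 and 2.15 CPM in untreated libraries. It was 1.69-fold lower in IL-27 than in untreated libraries (log2 -0.76 ± 0.23, adjusted p = 0.0331), a call lost without the pair (adjusted p = 0.092) and without untreated replicate 2 or 3 or IL-27 replicate 1 or 2 (0.0864 to 0.105).

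The other members of this role were not called with all libraries. Slc25a51, which imports NAD, averaged 85.1 ± 0.900 CPM in IL-27 libraries, 88.0 ± 5.04 CPM in IL-4 libraries and 94.8 ± 9.09 CPM in untreated libraries (adjusted p of 0.236 to 0.708). Without the pair it was lower in IL-27 than in untreated libraries (log2 -0.23 ± 0.05, adjusted p = 0.00064). Slc25a16 (linked to coenzyme A), Slc25a17 (a peroxisomal carrier) and Slc25a26 (S-adenosylmethionine) differed by at most 0.15 on the log2 scale in any comparison.

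Of the 3 glutathione and iron carriers, 0 were called with all libraries by edgeR or by DESeq2 in any comparison, and 1 had an unadjusted p under 0.05, in IL-27 against IL-4 libraries. Over all genes, edgeR called 12% to 21% in each direction of a comparison. Without the pair, edgeR called Slc25a39 and Slc25a28 in opposite directions. Slc25a39 was then lower in IL-27 than in IL-4 libraries (log2 -0.20 ± 0.05, adjusted p = 0.0014) and higher in IL-4 than in untreated libraries (0.17 ± 0.05, adjusted p = 0.0104). Slc25a28 was higher in IL-27 than in IL-4 libraries (log2 0.42 ± 0.10, adjusted p = 0.000565) and lower in IL-4 than in untreated libraries (-0.29 ± 0.10, adjusted p = 0.0265). Slc25a39, which imports glutathione, stood at 125, 126 and 122 CPM in IL-27 libraries, 197, 140 and 144 CPM in IL-4 libraries and 120, 174 and 131 CPM in untreated libraries. The highest IL-4 and untreated values were those of the pair that stood apart, and the groups overlapped except IL-27 and IL-4. Its near copy Slc25a40 was at 3.93 CPM in IL-4 replicate 1 against 9.94 and 6.95 CPM in the other IL-4 libraries, and at 3.22 CPM in untreated replicate 2 against 7.09 and 5.89 CPM in the other untreated libraries. The FPKM ratio of Slc25a39 to Slc25a40 was therefore 405 and 436 in those 2 libraries and 114 to 180 in the other 7. The size of this ratio rests on the lengths behind the deposited FPKM, 2900 bases for Slc25a39 and 23421 bases for Slc25a40. Slc25a28, the iron carrier mitoferrin 2, averaged 22.8 ± 0.899 CPM in IL-27 libraries, 19.8 ± 5.01 CPM in IL-4 libraries and 23.7 ± 5.00 CPM in untreated libraries.

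Among the carriers that resemble uncoupling proteins, Slc25a27 (UCP4, best known from brain) was lower under both cytokines. It stood at 1.53, 1.43 and 1.04 CPM in IL-27 libraries, 1.03, 0.799 and 1.65 CPM in IL-4 libraries and 4.28, 2.65 and 3.63 CPM in untreated libraries. The IL-27 and IL-4 libraries overlapped, and both lay below all untreated libraries. The fall was 2.64-fold under IL-27 (log2 -1.40 ± 0.32, adjusted p = 0.00853) and 3.03-fold under IL-4 (log2 -1.60 ± 0.32, adjusted p = 0.0052), each against untreated. Slc25a30 stood at 28.1, 25.3 and 26.8 CPM in IL-27 libraries, 16.3, 18.8 and 20.5 CPM in IL-4 libraries and 23.0, 22.9 and 23.7 CPM in untreated libraries. It was 1.44-fold higher in IL-27 than in IL-4 libraries (log2 0.53 ± 0.11, adjusted p = 0.00334). The untreated libraries lay between them, and with all libraries edgeR called neither group against untreated (adjusted p = 0.178 for IL-27 and 0.0552 for IL-4). Without the pair edgeR called it lower in IL-4 than in untreated libraries (log2 -0.24 ± 0.10, adjusted p = 0.0424). Slc25a14 was not called by edgeR (adjusted p of 0.0548 to 0.733). With all libraries DESeq2 had 2 of the 3 carriers of this role lower in IL-4 than in untreated libraries, against 1 by edgeR. In IL-27 against untreated libraries it had 1 higher, against 0 by edgeR.

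The last set holds carriers for which no substrate is given here. Slc25a45 stood at 27.0, 29.1 and 25.9 CPM in IL-27 libraries, 48.3, 41.4 and 39.1 CPM in IL-4 libraries and 48.9, 56.0 and 49.4 CPM in untreated libraries. Each IL-27 library was below each other library, and all IL-4 libraries were below all untreated libraries. It fell 1.88-fold under IL-27 against untreated (log2 -0.91 ± 0.11, adjusted p = 0.000205) and was 1.57-fold lower in IL-27 than in IL-4 libraries (log2 -0.65 ± 0.11, adjusted p = 0.00101). Under IL-4 against untreated edgeR did not call the difference with all libraries (log2 -0.26 ± 0.11, adjusted p = 0.111). Without the pair it was called (-0.28 ± 0.08, adjusted p = 0.00513). DESeq2 with all libraries had 2 carriers of this set lower in that comparison, against 1 by edgeR.

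Slc25a35 stood at 1.75, 1.54 and 2.11 CPM in IL-27 libraries, 3.64, 3.42 and 3.05 CPM in IL-4 libraries and 2.45, 2.83 and 3.18 CPM in untreated libraries. The IL-27 libraries were the lowest. It was 1.87-fold lower in IL-27 than in IL-4 libraries (log2 -0.90 ± 0.21, adjusted p = 0.00593). It was 1.57-fold lower in IL-27 than in untreated libraries (log2 -0.65 ± 0.21, adjusted p = 0.0397), and this call was lost without the pair (adjusted p = 0.0571) and without untreated replicate 2 or 3, IL-4 replicate 2 or 3, or IL-27 replicate 1 or 2 (0.0524 to 0.132).

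Slc25a53 stood at 2.07, 2.57 and 2.27 CPM in IL-27 libraries, 1.5, 0.999 and 0.814 CPM in IL-4 libraries and 1.89, 2.29 and 1.81 CPM in untreated libraries. The IL-4 libraries lay below all others. It was 2.09-fold higher in IL-27 than in IL-4 libraries (log2 1.07 ± 0.27, adjusted p = 0.0115) and 1.82-fold lower in IL-4 than in untreated libraries (log2 -0.86 ± 0.28, adjusted p = 0.0459). The call against untreated was lost when any 1 library other than IL-4 replicate 1 was left out (adjusted p of 0.0651 to 0.14).

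Slc25a34 was near 0, with 11, 16 and 5 counts in IL-27 libraries, 2, 0 and 0 counts in IL-4 libraries and 11, 4 and 4 counts in untreated libraries. The ratio of IL-27 to IL-4 libraries was 16.6, with an exact 95% counting interval of 4.23 to 143 (counting error only). It was called higher in IL-27 than in IL-4 libraries (adjusted p = 0.015), and the call was lost without IL-4 replicate 2 or 3 or IL-27 replicate 2 (adjusted p of 0.0511 to 0.0578). The gene passed the filter on low counts through IL-27 and untreated libraries, not through IL-4 libraries. With only the IL-27 and IL-4 libraries in the fit it had too few counts to be tested. Slc25a46, an outer membrane protein of mitochondrial fission and fusion, averaged 59.7 ± 3.02 CPM in IL-27 libraries, 57.8 ± 8.36 CPM in IL-4 libraries and 49.2 ± 7.0 CPM in untreated libraries and was not called with all libraries. Without the pair it was higher than in untreated libraries under IL-27 (log2 0.16 ± 0.06, adjusted p = 0.0358) and under IL-4 (0.24 ± 0.07, adjusted p = 0.00609). Slc25a43 and Slc25a47 were not called with all libraries or without the pair.

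The carriers deviated alike in the 2 libraries that stood apart. Each carrier's deviation from its group mean, on the scale of log2(CPM + 2), correlated between untreated replicate 2 and IL-4 replicate 1 with r = 0.904 over the 38 carriers, and 0.915 over 9553 genes at 5 CPM or more. The deviations followed the GC content of the longest annotated transcript, with r = 0.663 in IL-4 replicate 1 and 0.712 in untreated replicate 2 over the carriers; carriers of one library share its depth and preparation, and these values are descriptions. The 10 carriers of highest GC (56.0 to 60.6%) had a median deviation of 0.17 in IL-4 replicate 1 and 0.17 in untreated replicate 2. The 10 of lowest GC (39.4 to 45.4%) had -0.20 and -0.19. In both libraries 21 carriers lay above and 12 below their group mean.

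Slc25a40, the carrier of lowest GC, deviated by -0.53 in IL-4 replicate 1 and -0.46 in untreated replicate 2, and Slc25a10, the carrier of highest GC, by 0.43 and 0.40. The pair holds 1 IL-4 and 1 untreated library and no IL-27 library. Of the changes described above, the rises of Slc25a5 and Slc25a13 under IL-4 were log2 0.71 ± 0.05 and 1.18 ± 0.09 without the pair, and the rises of Slc25a33 and Slc25a44 under IL-27 against untreated were 1.51 ± 0.19 and 1.1 ± 0.06.

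**Figure D4:**
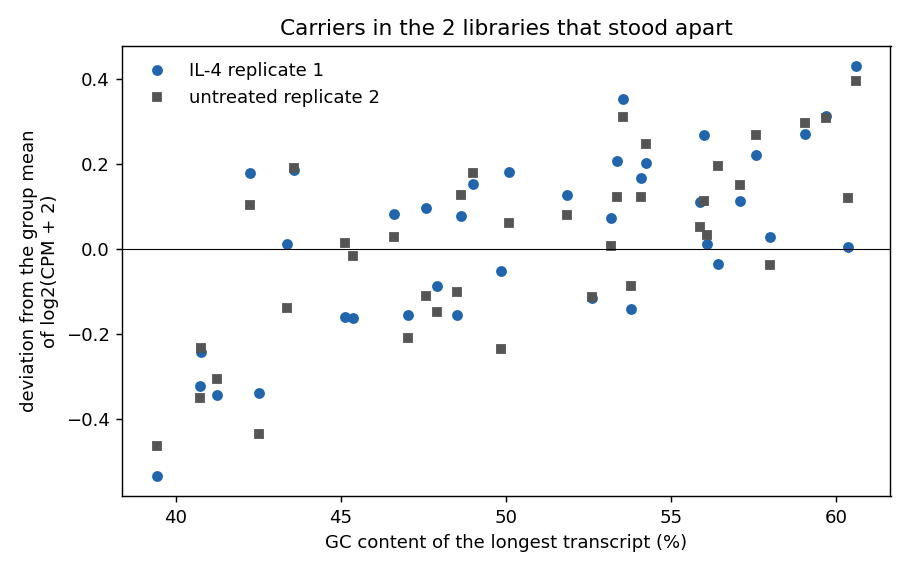
Deviation of each tested carrier from its group mean of log2(CPM + 2) in IL-4 replicate 1 and untreated replicate 2, against the GC content of its longest transcript in percent. Of the 10 carriers of lowest GC, 7 lie below 0 in each library, down to -0.53 for Slc25a40, and of the 10 of highest GC 1 does in each library, the highest being Slc25a10 at 0.43.

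Enzymes and other proteins that work with these carriers were described from lists of genes by pathway. Of the malate-aspartate shuttle and citrate enzymes, 8 of 14 were lower and 3 higher in IL-27 than in IL-4 libraries (21% and 18.8% of all genes), with a list median of -0.42 on the log2 scale. Mdh1, the cytosolic malate dehydrogenase, averaged 108 ± 2.89 CPM in IL-27 libraries, 200 ± 23.9 CPM in IL-4 libraries and 169 ± 24.1 CPM in untreated libraries, with a log2 difference of -0.89 ± 0.12 between IL-27 and IL-4 (adjusted p = 0.000231). Glud1 (glutamate dehydrogenase) and Cs (citrate synthase) were lower as well, by log2 -0.52 ± 0.07 and -0.45 ± 0.07 (adjusted p = 0.000283 and 0.000767). Against untreated libraries, IL-27 libraries had 2 of these 14 enzymes higher and 2 lower (14.3% each, beside 14% and 15.1% of all genes). Glud1 and Mdh1 fell, by log2 -0.44 ± 0.07 and -0.65 ± 0.12, and Gpd2, of the glycerophosphate shuttle, rose by 0.62 ± 0.10 (adjusted p of 0.00139 to 0.00264). Without the pair, when 49.5% of all genes were called, 3 were higher and 8 lower in that comparison. DESeq2 with all libraries had 2 higher and 4 lower there (2119 and 2310 over all genes). In IL-4 against untreated libraries edgeR called only Cs, at log2 0.33 ± 0.07 (adjusted p = 0.00881). The shares were 7.14% higher and 0% lower, beside 12.9% and 12% of all genes. DESeq2 had 3 higher and 0 lower in this comparison (1952 and 1888 over all genes). Without the pair, when 46.4% of all genes were called, 7 were higher and 1 lower.

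Enzymes of branched-chain amino acid breakdown, the pathway that Slc25a44 supplies, were called in both directions. In IL-27 against untreated libraries 1 of 7 was higher and 2 were lower (14.3% and 28.6%, beside 14% and 15.1% of all genes), and without the pair, when 49.5% of all genes were called, 1 was higher and 4 were lower. Bcat1, the cytosolic aminotransferase, averaged 10.5 ± 1.67 CPM in IL-27 libraries, 2.70 ± 0.390 CPM in IL-4 libraries and 2.46 ± 0.818 CPM in untreated libraries (log2 2.09 ± 0.24 in IL-27 against untreated, adjusted p = 0.000169). Bcat2, the mitochondrial aminotransferase, averaged 31.7 ± 4.26, 62.6 ± 17.7 and 68.3 ± 15.5 CPM in those groups (log2 -1.11 ± 0.22, adjusted p = 0.00369). Bckdha, a subunit of the branched-chain keto acid dehydrogenase, was lower in IL-27 than in untreated libraries by log2 -0.81 ± 0.25 (adjusted p = 0.0341), a call kept in 5 of 9 leave-one-out fits and without the pair (-0.51, adjusted p = 4.83e-07). Bckdk, the kinase that inhibits that enzyme, was lower in IL-27 than in IL-4 libraries by log2 -1.15 ± 0.23 (adjusted p = 0.003). In IL-4 against untreated libraries 0 were called by edgeR (12.9% higher and 12% lower of all genes) or by DESeq2, and 0 had an unadjusted p under 0.05. Without the pair, when 46.4% of all genes were called, 1 was higher and 2 were lower.

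Of the ornithine and urea-cycle enzymes, 7 were tested. Arg1, the arginase that marks alternative activation in mouse macrophages, averaged 0.109 ± 0.166 CPM in IL-27 libraries, 472 ± 26.3 CPM in IL-4 libraries and 5.26 ± 0.827 CPM in untreated libraries. Aldh18a1, which makes the precursor of proline and ornithine, was higher under both cytokines against untreated, at log2 2.11 ± 0.13 for IL-27 and 1.48 ± 0.13 for IL-4 (adjusted p = 3.02e-06 and 3.2e-05). Ass1, which joins citrulline to aspartate, was higher in IL-27 than in untreated libraries by log2 1.71 ± 0.17 (adjusted p = 6e-05). In IL-27 against untreated libraries 3 of the 7 were higher and 2 lower (14% and 15.1% of all genes), and in IL-4 against untreated libraries 3 were higher and 1 lower (12.9% and 12% of all genes). Slc25a15, which moves ornithine, was not called in any comparison, as above.

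In the cofactor list, Mthfd2, the mitochondrial folate enzyme, averaged 153 ± 1.95 CPM in IL-27 libraries, 91.3 ± 5.61 CPM in IL-4 libraries and 25.1 ± 2.12 CPM in untreated libraries. It rose by log2 2.61 ± 0.10 under IL-27 and 1.86 ± 0.09 under IL-4 against untreated (adjusted p = 2.18e-07 and 9.77e-07). Mthfd1l, which follows it in the folate pathway, rose by 0.76 ± 0.11 and 1.30 ± 0.11 in those comparisons (adjusted p = 0.000508 and 2.51e-05). Slc25a32, which imports folate, was called in IL-27 against untreated libraries, and its difference between IL-27 and IL-4 libraries was not called with all libraries (log2 0.45 ± 0.18, adjusted p = 0.0702). That difference was called without the pair (log2 0.28 ± 0.08, adjusted p = 0.00435), without untreated replicate 2 (0.0325), without IL-4 replicate 2 (0.0474) and with only those groups in the fit (0.0444). Of the list, 4 of 18 genes were higher and 2 lower in IL-27 against untreated (22.2% and 11.1%, beside 14% and 15.1% of all genes). In IL-4 against untreated 3 were higher and 0 lower (16.7% and 0%, beside 12.9% and 12%), and in IL-27 against IL-4 libraries 2 were higher and 2 lower (11.1% each, beside 18.8% and 21%). Nampt, the NAD salvage enzyme, was higher in IL-27 than in untreated libraries by log2 0.97 ± 0.17 (adjusted p = 0.00179).

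For glycine and heme, Shmt2, which makes glycine in the matrix, rose under IL-27 and under IL-4 against untreated, by log2 0.83 ± 0.18 and 1.12 ± 0.18 (adjusted p = 0.00683 and 0.00163). Alas1, the first enzyme of heme synthesis, was lower in IL-27 than in untreated libraries by log2 -0.63 ± 0.15 (adjusted p = 0.0117; 0.0516 without IL-27 replicate 1). Of the 13 genes, 1 was higher and 3 lower in IL-27 against untreated (7.69% and 23.1%, beside 14% and 15.1% of all genes). In IL-4 against untreated 2 were higher and 0 lower (15.4% and 0%, beside 12.9% and 12%), and in IL-27 against IL-4 libraries 1 was higher and 4 lower (7.69% and 30.8%, beside 18.8% and 21%).

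Mitochondrial nucleotides are used by the genes that copy and maintain mitochondrial DNA. In IL-27 against untreated libraries 0 of 8 were called by edgeR (14% higher and 15.1% lower of all genes), with 3 at an unadjusted p under 0.05. By DESeq2, and by edgeR without the pair (49.5% of all genes called), 1 was higher and 1 lower. Tfam, which packages mitochondrial DNA, differed by log2 0.47 ± 0.16 (adjusted p = 0.0514). Cmpk2, a mitochondrial pyrimidine nucleotide kinase, averaged 7.07 ± 1.03 CPM in IL-27 libraries, 3.6 ± 0.581 CPM in IL-4 libraries and 6.53 ± 0.561 CPM in untreated libraries. It fell under IL-4 against untreated, as Tk2 (the mitochondrial thymidine kinase) did, by log2 -0.85 ± 0.18 and -0.48 ± 0.10 (adjusted p = 0.00597 and 0.0052).

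Glutathione enzymes were lower in 3 of 9 cases and higher in 0 in IL-27 against both other groups, beside 21% lower and 18.8% higher of all genes against IL-4 and 15.1% and 14% against untreated libraries. Gpx1, a glutathione peroxidase, averaged 296 ± 5.83 CPM in IL-27 libraries, 591 ± 105 CPM in IL-4 libraries and 561 ± 78.4 CPM in untreated libraries. Gsr, which reduces glutathione, was lower than in untreated libraries under IL-27 (log2 -0.98 ± 0.12, adjusted p = 0.000196) and under IL-4 (log2 -1.07 ± 0.12, adjusted p = 0.000137).

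Family members that carry other symbols were described beside the carriers. Ucp2, an uncoupling protein of immune cells, averaged 765 ± 39.5 CPM in IL-27 libraries, 1402 ± 292 CPM in IL-4 libraries and 1034 ± 219 CPM in untreated libraries and was lower in IL-27 than in IL-4 libraries (log2 -0.87 ± 0.17, adjusted p = 0.00259). Mtch1, an outer membrane relative, was lower in IL-27 than in IL-4 and untreated libraries, by log2 -0.81 ± 0.17 and -0.66 ± 0.17 (adjusted p = 0.00433 and 0.0174), and the call against untreated libraries was kept in 7 of 9 leave-one-out fits (highest adjusted p 0.069, without IL-27 replicate 1). Mtch2 was higher under IL-27 and IL-4 than in untreated libraries, by log2 0.46 ± 0.08 and 0.33 ± 0.08 (adjusted p = 0.00196 and 0.0139), and the IL-4 call was kept in 6 of 9 leave-one-out fits (highest adjusted p 0.053, without IL-4 replicate 2).

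Other transporters and channels of the inner and outer membrane were called in both directions. Of 21, 2 were higher and 7 lower in IL-27 against IL-4 libraries (9.52% and 33.3%, beside 18.8% and 21% of all genes). Against untreated libraries, 2 were higher and 2 lower in IL-27 libraries (9.52% each, beside 14% and 15.1%), and in IL-4 against untreated libraries 4 were higher and 1 lower (19% and 4.76%, beside 12.9% and 12%). Mcu, the calcium uniporter, averaged 29.7 ± 1.95 CPM in IL-27 libraries, 14.6 ± 0.737 CPM in IL-4 libraries and 15.7 ± 0.632 CPM in untreated libraries (log2 0.92 ± 0.10 in IL-27 against untreated, adjusted p = 9.88e-05). Sfxn5, a sideroflexin, averaged 2.52 ± 0.414 CPM, 7.41 ± 0.291 CPM and 9.76 ± 0.839 CPM in those groups (log2 -1.95 ± 0.16, adjusted p = 1.63e-05). Sfxn1, the mitochondrial serine transporter, rose under IL-27 and IL-4 against untreated, by log2 0.57 ± 0.08 and 0.47 ± 0.08 (adjusted p = 0.000658 and 0.00272). Slc8b1, the sodium-calcium exchanger of the inner membrane, fell under IL-4 by log2 -0.78 ± 0.15, and Vdac1, the outer membrane channel, rose by 0.39 ± 0.08 (adjusted p = 0.00394 and 0.00507).

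The machinery that imports carriers into the inner membrane was called in 4 of 16 cases higher and 0 lower in IL-27 against untreated libraries (14% and 15.1% of all genes), and in 3 higher and 0 lower in IL-4 against untreated libraries (12.9% and 12% of all genes). Timm8a1, a small chaperone of the intermembrane space, averaged 9.61 ± 1.08 CPM in IL-27 libraries, 9.92 ± 1.72 CPM in IL-4 libraries and 3.88 ± 1.35 CPM in untreated libraries, with log2 changes of 1.30 ± 0.25 and 1.35 ± 0.25 (adjusted p = 0.00373 and 0.00361). Tomm20, a receptor of the outer membrane, rose by log2 0.35 ± 0.08 under IL-27 against untreated (adjusted p = 0.00725). In IL-27 against IL-4 libraries 1 was higher and 3 were lower (18.8% and 21% of all genes). Tomm5, Tomm6 and Agk, at log2 -0.32 to -0.47 in that comparison, each lost the call when single libraries were left out. Without the pair, when 58.3% of all genes were called, 2 were higher and 9 lower in that comparison.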

How the data were processed

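PolyA RNA of 9 libraries, 3 each of IL-27, IL-4 and untreated macrophages, was measured. Per the submitters' processing notes, fastp, HISAT2, HTSeq and GRCm39 were used, with no versions; strand setting, gene annotation and the handling of multi-mapped reads were not given in the sources used here. The deposited table of raw counts holds whole numbers for 16200 genes, and the authors' FPKM values equal those counts divided by the library's total count and by 1 whole gene length per gene, within 1e-06 bases for 100% of the genes. In R 4.3.3, all 9 libraries entered 1 quasi-likelihood fit in edgeR 4.0.16 with group as the term and TMM scaling (factors of 0.918 to 1.06), after filterByExpr with a minimum count of 10. Its common dispersion of 0.0272 corresponds to a coefficient of variation of 0.165 between libraries. Each standard error was obtained by dividing the log2 fold change by the root of the F statistic. Total counts were 34577188 to 37951827 per library, and floors and intervals from counts cover counting error only. CPM and FPKM are given as mean ± SD. The fit was tested on simulated data.

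Genes in the role and context lists, and the members themselves, were chosen with earlier results of these data known. Called carriers are given in full for up to 12 per comparison, by adjusted p, with a set of carriers given whatever their result, and each context list by up to 3 genes per comparison. Alternatives were DESeq2 1.42.0 and its size factors, other filters on low counts (none, or CPM over 1 in 3 libraries), a fit of the 2 groups compared, a replicate block, each library left out, and the pair that stood apart left out. Promoter sequences are RefSeq's on GRCm38.p6, a build other than that of the counts, and for 37 of 43 windows the last 25 bases were found in an annotated transcript of the gene, on its strand. Transcript GC was taken from an annotation of the same older build. Carriers with no window include Slc25a2, Slc25a26, Slc25a27, Slc25a32, Slc25a35, Slc25a44, Slc25a46 and Slc25a51. No protein sequences are printed, and some genes of the lists are counted but not reported by name here.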

Additional observations from a re-analysis of the deposited data

How the results depend on the processing

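Of 32 calls of carriers, 32 held with DESeq2's size factors in edgeR and with DESeq2's own test, and 31 with a filter on CPM over 1, which left Slc25a34 without a value. With no filter on low counts 29 held, and Slc25a53 (IL-4 against untreated), Slc25a25 and Slc25a35 (IL-27 against untreated) were lost. With only the 2 compared groups in the fit 29 held as well, 2 were lost and Slc25a34 had no value. DESeq2 called 5 carriers higher and 10 lower in IL-27 against untreated, 5 and 11 in IL-27 against IL-4, and 2 and 6 in IL-4 against untreated. Over all genes it called 2119 and 2310, 2670 and 2943, and 1952 and 1888 in the same order.

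Without the pair, IL-4 replicate 1 and untreated replicate 2, 7 carriers were higher and 12 lower in IL-27 than in untreated libraries. In IL-27 against IL-4 libraries 11 were higher and 13 lower, and in IL-4 against untreated libraries 8 were higher and 11 lower. Over all 12748 genes then tested, 3089 were higher and 3224 lower in IL-27 against untreated (1766 and 1904 with all libraries). In IL-27 against IL-4, 3560 were higher and 3866 lower (2366 and 2642), and in IL-4 against untreated 3061 and 2848 (1630 and 1515). In the last comparison 984 genes were lower with only the 2 groups in the fit, against 1515. In IL-27 against untreated libraries, log2 differences without the pair turned sign for Slc25a3 (0.0742) and Slc25a13 (-0.0910), both not called there. The cause was not tested.

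With single libraries left out, 2 to 6 carriers were higher and 5 to 11 lower in IL-27 against untreated, and 3 to 7 were lower in IL-4 against untreated. Over all genes, 1241 to 2232 were higher and 1335 to 2386 lower in IL-27 against untreated, and 1066 to 1839 were lower in IL-4 against untreated. The low values of 2 higher carriers came without any 1 of the IL-27 libraries, that of 5 lower carriers without IL-27 replicate 2, and the 7 lower carriers without IL-4 replicate 1. Single carriers were followed here only where they were called or named whatever their result, and those that turned sign were not called with all libraries. In IL-27 against untreated they included Slc25a3 (-0.0813 to 0.0745), Slc25a5 (-0.0058 to 0.11) and Slc25a13 (-0.0907 to 0.11). In IL-4 against untreated they included Slc25a1 (-0.10 to 0.22), Slc25a10 (-0.13 to 0.36), Slc25a11 (-0.00068 to 0.25), Slc25a12 (-0.0101 to 0.11), Slc25a15 (-0.11 to 0.0303), Slc25a22 (-0.0094 to 0.27) and Slc25a39 (-0.0010 to 0.35).

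Deviations of libraries with the same replicate number correlated at -0.827 to 0.705 between IL-4 and untreated libraries over 9553 genes. With IL-27 libraries they correlated at -0.0104 to 0.0878. Deviations within a group sum to 0, so 1 library that stands apart sets those of the others in its group. These values therefore cannot show whether replicate numbers pair the libraries, which the labels do not state. With a replicate block, 3 carriers were higher and 6 lower in IL-27 against untreated, 5 and 9 in IL-27 against IL-4, and 2 and 3 in IL-4 against untreated. Calls also fell over all genes, to 1399 higher and 1500 lower in IL-27 against untreated (1766 and 1904 without the block). In IL-4 against untreated, 1207 genes were higher and 1101 lower with the block (1630 and 1515 without it). In IL-27 against IL-4 the counts over all genes were also smaller with the block, in both directions. Calls lost under the block were Slc25a53 (adjusted p = 0.0816), Slc25a25 (0.0787), Slc25a35 (0.0786) and Slc25a42 (0.0645), by edgeR. Depth limits carriers of few counts, such as Slc25a34, whose fold change carries a wide counting interval.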
